A study of Mus musculus with 2 samples.

Results

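Gata2, Gata3, Gata4, Gata5 and Gata6 were the 5 members described, chosen by name as the paralogs of Gata1 among the 29453 genes of the spliced and unspliced count matrices, by a rule that uses no measured value. The question was whether any of them stood higher where Gata1 was lost, and in which lineages of the embryo each was detected. Chimeric mouse embryos had been made by injecting tdTomato-marked embryonic stem cells of 1 Gata1- clone, in which CRISPR/Cas9 left a 38 bp frameshift mutation in exon 4 of the X-linked gene Gata1, into wild-type C57BL/6 blastocysts at E3.5. From 6 embryos, pooled, the fluorescent cells (tdTom+, all descended from the mutant clone) and the non-fluorescent cells (tdTom-, the wild-type host of the same embryos) were sorted and made into 1 droplet-based single-cell RNA library each. The age label reads E8.5 for tdTom+ and E8.6 for tdTom-. The titles of both samples give E8.5, and the fractions came from the same pooled embryos.

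GATA factors are transcription factors with a pair of zinc fingers that bind the sequence GATA in DNA. Gata1, Gata2 and Gata3 are known from the blood system, where Gata2 acts in stem and progenitor cells and Gata1 takes over at many of the same sites as red cells and megakaryocytes mature, a handover in which Gata1 represses Gata2. Gata4, Gata5 and Gata6 are known from the heart, the gut and other mesoderm and endoderm derivatives, and Gata2 and Gata3 also act in trophoblast, and Gata3 in ectoderm.

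In mouse assembly GRCm38, Gata2 (ENSMUSG00000015053) lies at chr6:88193891-88207032 on the plus strand and Gata3 (ENSMUSG00000015619) at chr2:9857078-9890034 on the minus strand. Gata1 (ENSMUSG00000031162) lies at chrX:7959260-7978071 (minus). The sequence upstream of Gata2 is shown because Gata2 was the paralog whose level differed most between the fractions, and a search for the letters that GATA factors read can be made in it. RefSeq gives Gata2 start sites at 2 positions. The 250 bases before the outer one, which lie outside the gene at chr6:88193641-88193890 (plus strand, GRCm38.p6, RefSeq), read as follows, 5′ to 3′, in lower case throughout because no match was found to put in capitals.

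Gata2 upstream window: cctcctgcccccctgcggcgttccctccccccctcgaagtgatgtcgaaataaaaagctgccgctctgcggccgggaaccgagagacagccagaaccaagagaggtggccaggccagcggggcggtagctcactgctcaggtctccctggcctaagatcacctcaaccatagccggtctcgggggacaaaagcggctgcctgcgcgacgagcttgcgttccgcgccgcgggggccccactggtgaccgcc

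The 4 letters GATA, searched on both strands (GATA or TATC), were in 0 places of this window and in 0 places of the 250 bases before the inner start, which lie inside the gene and overlap an exon of another transcript. The longer form AGATAA (or TTATCT), which overlaps the first motif, was also found 0 times in each. Of 32851 upstream windows of the same length from 27025 genes, 53.6% held GATA or TATC and 9.99% held AGATAA or TTATCT. The windows of Gata2 were GC-rich, at 67.2% and 74% against a median of 52.4%. Absence of these letters says only that they are not in these windows.

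The tdTom+ library held 8981 cell barcodes with a median of 17598 spliced UMIs (unique molecular identifiers, each standing for 1 captured RNA molecule), and the tdTom- library 9252 barcodes with a median of 15996. After doublets were left out, 8552 tdTom+ and 8690 tdTom- cells were kept, of which 1623 and 1481 were blood cells and 522 and 375 endothelial-like, with 4 cells of each fraction in both counts because blood cells were clustered again. The libraries shared 18 barcode sequences. Globin genes took 0.421% of spliced UMIs in tdTom+ and 2.06% in tdTom-. Levels are given as CPM, the spliced UMIs of a gene per 1000000 spliced UMIs of the same cells, and differences as the log2 fold of tdTom+ over tdTom-. Each fraction was 1 library, so there is no replicate check and no test, and the 95% intervals in parentheses cover counting error only. A gene entered a comparison between fractions if it had at least 50 UMIs over both, and a difference of at least 2-fold is named as past that fold.

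The targeted gene was examined first. Over all kept cells Gata1, the master regulator of red cell and megakaryocyte maturation, stood at 6.51 CPM in tdTom+ (1001 spliced UMIs) against 28.0 CPM in tdTom- (3958 spliced UMIs), a log2 fold of -2.10 (-2.21 to -2.004). Its unspliced UMIs went the other way, with 1370 in tdTom+ and 361 in tdTom-. With both kinds of UMI added, the log2 fold was -0.98. Spliced Gata1 RNA was thus lower in the mutant fraction without being absent from it.

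Over all kept cells Gata2 was the 1 paralog past 2-fold. It stood at 34.0 CPM in tdTom+ (5223 UMIs) against 6.06 CPM in tdTom- (857 UMIs), a log2 fold of 2.49 (2.38 to 2.59), in a comparison in which 2.07% of 14803 genes were past 2-fold higher and 2.71% lower. Gata3 stood at 10.6 and 9.26 CPM, a log2 fold of 0.19 (0.09 to 0.30), and Gata4 at 14.8 and 10.8 CPM, a log2 fold of 0.46 (0.37 to 0.55). Gata5 stood at 19.9 and 13.6 CPM, a log2 fold of 0.55 (0.46 to 0.63), and Gata6 at 57.8 and 42.6 CPM, a log2 fold of 0.44 (0.39 to 0.49). These last 4 differences were all below 2-fold. The fractions also differed in make-up, and its part in these values was not tested. The tdTom+ fraction held 528 cardiomyocyte-like, 681 allantois-like and 711 extraembryonic mesenchyme-like cells, and the tdTom- fraction 328, 366 and 463. When fractions were compared cluster by cluster over the 30 clusters with at least 20 cells of each, the pooled log2 fold was 0.04 for Gata3, 0.10 for Gata4, 0.00468 for Gata5 and 0.10 for Gata6, against 0.45 for Gata2 and -2.79 for Gata1. That minimum left out the erythroid-like cluster (3 tdTom+ and 1382 tdTom- cells) and the cluster led by Slc32a1 and Car2 (1285 and 5). These 2 clusters held most blood cells, so the values of Gata2 and Gata1 over the 30 clusters do not cover them. Outside the blood and endothelial cells the log2 fold of Gata2 over all cells was -0.25 (-0.44 to -0.06), a sign that rested on the trophoblast-like cells, of which 73 were tdTom- and 1 was tdTom+. Without them Gata2 stood at 3.99 CPM in tdTom+ against 2.46 CPM in tdTom-, a log2 fold of 0.70 (0.47 to 0.92), beside 1.74 and 0.389 CPM in neural-like cells, which should lack it.

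Blood cells held 84.0% of the Gata2 UMIs of tdTom+ and 13.1% of those of tdTom-. The fractions scarcely shared blood sub-clusters, since nearly all mature erythroid-like cells were tdTom-, so each tdTom+ blood cell was set against the tdTom- sub-cluster that its nearest tdTom- blood cells belonged to. The GATA genes and their partners took no part in clustering or matching. Of 1623 tdTom+ blood cells, 1224 (75.4%) were nearest to 1 tdTom- sub-cluster of 321 cells led by Cited4 and F10, which held erythroid markers and is called early erythroid-like here. The name is that of the tdTom- cells. By their own sub-clusters all but 1 of the matched tdTom+ cells were blood progenitor-like (284 cells) or unnamed, with 475 in the one led by Slc32a1 and Car2, 253 in that led by Myb and Slc48a1, 122 in that led by Spi1 and Rac2 and 89 in that led by Rab27b and Fermt3. When each of those 321 cells was itself placed by its neighbours, 93.1% returned to that sub-cluster. Sub-clusters and neighbours came from the same components of expression, so this return does not show how well the tdTom+ cells fit their match.

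In the early erythroid-like comparison, Gata2 stood at 137 CPM in tdTom+ (133 to 142; 3733 UMIs) against 5.38 CPM in tdTom- (3.73 to 7.52; 34 UMIs). The log2 fold was 4.67 (4.19 to 5.21). In this comparison 7.96% of 9350 genes were past 2-fold higher in tdTom+ and 3.32% lower, and 30 genes (0.321%) had a larger fold than Gata2. Gata1 stood at 31.3 CPM in tdTom+ against 140 CPM in tdTom-, a log2 fold of -2.16. The 2 genes therefore stood in opposite order in the fractions, with more Gata2 than Gata1 UMIs in tdTom+ and more Gata1 than Gata2 UMIs in tdTom-.

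At least 1 Gata2 UMI was found in 79.5% of the matched tdTom+ cells and 7.79% of the tdTom- cells. In neural-like cells, which should lack Gata2, the share was 2.85% in tdTom+ (806 cells, median 16808 spliced UMIs) and 0.608% in tdTom- (1316 cells, median 15078). After every cell was thinned to 5000 spliced UMIs, the blood shares were 43.1% and 1.57%, and the neural-like shares 0.765% and 0.235%. The median cell held 2 Gata2 UMIs in tdTom+ and 0 in tdTom-, with a highest count of 23 and 4. At least 5 UMIs were found in 23.9% of tdTom+ cells and in 0 of 321 tdTom- cells, a share whose interval reaches 1.14%. The difference was therefore spread over most of the matched tdTom+ cells and did not rest on a few cells with high counts.

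**Figure D1:**
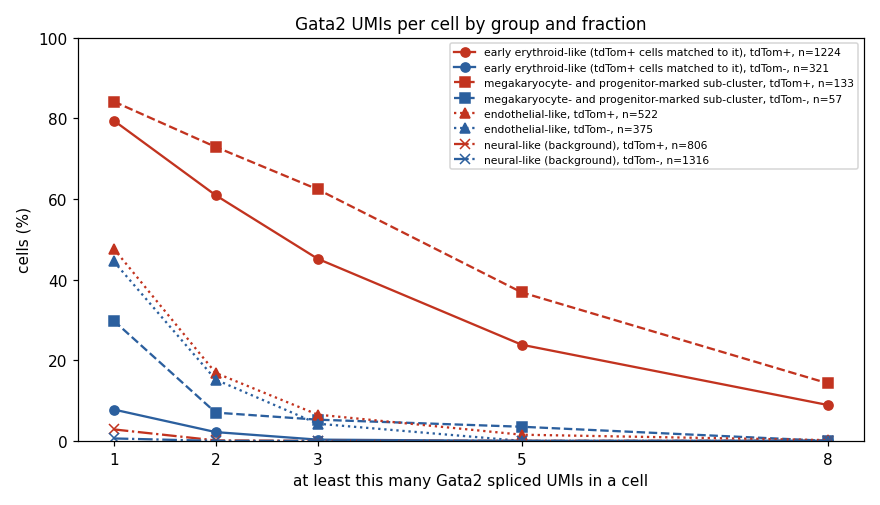
Share of cells (vertical axis, %) with at least a given number of spliced Gata2 UMIs (horizontal axis) in the compared groups of each fraction, unthinned. At 1 UMI or more the early erythroid-like comparison stood at 79.5% in tdTom+ and 7.79% in tdTom-, while the endothelial-like curves lay close together at 47.7% and 44.5%.

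Markers of other blood cells moved with this comparison, and their part in the result was not tested. The 8 erythroid markers summed to 19456 CPM in tdTom+ and 55444 in tdTom-, with 4 past 2-fold lower and 0 higher. The blood progenitor markers summed to 473 and 190 CPM, with 4 of the 6 tested past 2-fold higher and 1 lower. The myeloid markers summed to 53.5 and 2.22 CPM, with 2 of the 2 tested higher and with Csf1r, Ptprc, Tyrobp and Cx3cr1 at 0 UMIs in tdTom-. Those 2 reached the minimum through their tdTom+ UMIs. Their place among the genes tested thus depended on the fraction in which they were higher. Over all genes tested, 7.96% were past 2-fold higher and 3.32% lower. The megakaryocyte markers summed to 21.3 and 27.4 CPM and the endothelial markers to 21.3 and 49.8 CPM, with 3 of the 4 tested past 2-fold lower and 0 higher, and with Emcn and Cldn5 at 0 UMIs in tdTom-. The trophoblast markers, a list that bears on Gata2 because trophoblast cells also carry it, summed to 1.73 and 5.22 CPM.

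Gata2 was at a like level in the 4 blood sub-clusters that were nearly all tdTom+. It stood at 125 CPM in the sub-cluster of 477 tdTom+ cells led by Slc32a1 and Car2, and at 148 CPM in the blood progenitor-like one of 371 cells led by the same pair. The sub-cluster led by Myb and Slc48a1 (253 cells) stood at 136 CPM and that led by Spi1 and Rac2 (185 cells) at 109 CPM. A further sub-cluster with progenitor markers and cells of both fractions, led by Fcer1g and Alox5ap, stood lower, at 30.8 CPM in tdTom+. Every tdTom- erythroid-like sub-cluster stood below all of these values. The early one stood at 5.38 CPM, the one led by Hba-x and Hbb-y (385 cells) at 1.94 CPM, and those led by Hbb-y and Hba-x at 0.398 CPM (333 cells) and 1.19 CPM (296 cells). The one led by Hbb-y and Cdkn1a (57 cells) stood at 5.21 CPM.

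**Figure D2:**
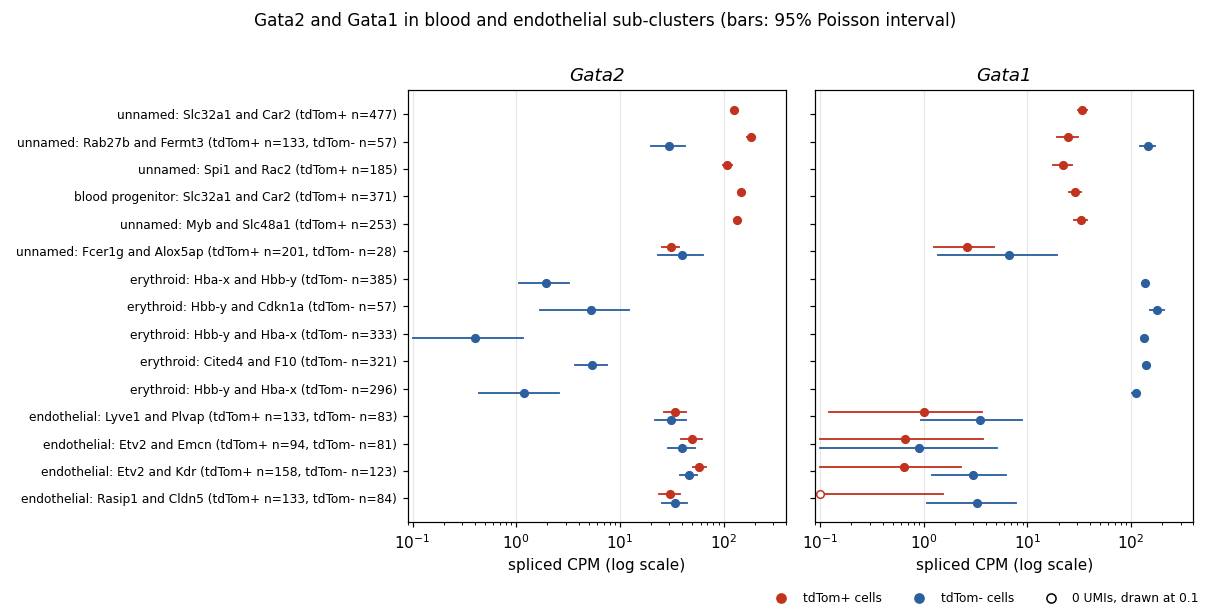
Level of Gata2 and Gata1 (spliced CPM, log scale) in each blood and endothelial sub-cluster, with 1 point per fraction and bars for the 95% Poisson interval. The tdTom+ cells of 5 blood sub-clusters sat between 109 and 184 CPM for Gata2 and those of the one led by Fcer1g and Alox5ap at 30.8 CPM, against 0.398 to 5.38 CPM in the tdTom- erythroid-like ones.

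One blood sub-cluster, led by Rab27b and Fermt3 and holding megakaryocyte and progenitor markers, had cells of both fractions (133 tdTom+ and 57 tdTom-). Of its tdTom+ cells, 89 were nearest to the early erythroid-like tdTom- cells and are also in that comparison. Gata2 stood at 184 CPM in its tdTom+ cells (169 to 200; 546 UMIs) and at 29.9 CPM in its tdTom- cells (20.1 to 42.6; 30 UMIs), a log2 fold of 2.62 (2.09 to 3.21). At least 1 UMI was found in 84.2% and 29.8% of cells, and in 50.4% and 13.2% after thinning. In this sub-cluster 1.78% of 6005 genes were past 2-fold higher and 4.11% lower. Gata1 stood at 24.6 and 144 CPM, a log2 fold of -2.55. The megakaryocyte markers summed to 138 CPM in tdTom+ and 622 CPM in tdTom-, all 4 that were tested being past 2-fold lower. The blood progenitor markers summed to 549 and 424 CPM, with 3 of 7 past 2-fold higher and 1 lower, and the endothelial markers to 67.1 and 204 CPM, with 2 of 3 tested lower. The erythroid markers summed to 3716 and 4068 CPM, with 2 of 8 higher, and the myeloid markers to 111 and 188 CPM, with 1 of 2 tested lower. The trophoblast markers summed to 3.04 and 20.9 CPM, with 0 reaching the minimum. The parietal endoderm markers summed to 73.2 and 169 CPM, with 2 of 3 tested lower, and the cardiomyocyte markers to 54.0 and 34.8 CPM, with 0 of 1 tested past 2-fold. The part of these markers in the result was not tested. The 95 tdTom+ cells that matched the same tdTom- cells by their neighbours gave 125 against 29.9 CPM, a log2 fold of 2.07 (1.52 to 2.67), where 2.79% of 5524 genes were past 2-fold higher and 3.13% lower. Here the tdTom- cells held more Gata2 than the early erythroid-like tdTom- cells, and the log2 fold was smaller.

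The sub-cluster led by Fcer1g and Alox5ap (201 tdTom+ and 28 tdTom- cells) is called myeloid-marked for the myeloid markers Fcer1g and Tyrobp among its leading genes, although all 7 blood progenitor markers and 7 endothelial markers were also raised in it. It did not show a difference of this kind. Gata2 stood at 30.8 CPM in tdTom+ (118 UMIs) against 39.7 CPM in tdTom- (18 UMIs), a log2 fold of -0.37 (-1.09 to 0.44), where 5.40% of 6596 genes were past 2-fold higher and 2.14% lower. The counting interval of Gata2 lay below that of the early erythroid-like comparison, but it covers no spread between libraries. Gata1 stood at 2.61 CPM in tdTom+ (10 UMIs) and 6.62 CPM in tdTom- (3 UMIs) in this sub-cluster. Its tdTom- cells thus held little Gata1, against 140 CPM in the early erythroid-like tdTom- cells. The endothelial markers summed to 552 CPM in tdTom+ and 1002 in tdTom- there, with 2 of 7 tested past 2-fold lower, and the blood progenitor markers to 828 and 724 CPM, with 4 of 7 higher and 1 lower. The myeloid markers summed to 1092 and 731 CPM, with 1 of 6 tested higher and 1 lower. The part of these markers in the Gata2 values was not tested.

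No other paralog reached 50 UMIs in the early erythroid-like comparison. Gata3 had 31 UMIs in tdTom+ and 1 in tdTom- (1.14 and 0.158 CPM), Gata4 had 24 and 3 (0.883 and 0.475 CPM), Gata5 had 9 and 0 (0.331 CPM, and a count of 0 whose interval reaches 0.584 CPM), and Gata6 had 26 and 8 (0.956 and 1.27 CPM). In neural-like cells of the same libraries Gata3 stood at 2.32 CPM in tdTom+ and 1.60 in tdTom-, Gata4 at 0.798 and 0.340, Gata5 at 0.943 and 0.292, and Gata6 at 2.54 and 1.80. In tdTom+ the levels of Gata3, Gata5 and Gata6 in the cells compared were below those of neural-like cells and that of Gata4 was close to it. For Gata3 the neural-like level is no clean measure of free RNA, since in tdTom- it lay above the level in blood (0.280 CPM). The same held in tdTom- for Gata6 (1.30 CPM in blood) and, from few UMIs and by little, for Gata5 (0.245 CPM in blood). Gata3 had more UMIs in tdTom+ than in tdTom-, with a log2 fold of 2.85 whose interval (0.26 to 8.20) spans little and large differences, and for Gata4 and Gata6 the interval included 0.

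Over all blood cells without matching, Gata3 was past 2-fold, at 1.91 CPM in tdTom+ (67 UMIs) against 0.280 CPM in tdTom- (8 UMIs), a log2 fold of 2.77 (1.71 to 4.04), in a comparison in which 13.3% of 10502 genes were past 2-fold higher and 3.48% lower. Both values lie below those of neural-like cells (2.32 and 1.60 CPM). Gata3 reached the minimum for this comparison through its tdTom+ UMIs. Its place among the genes tested thus depended on the fraction in which it was higher. Of those 67 UMIs, 32 lay in the myeloid-marked sub-cluster, which held 201 tdTom+ and 28 tdTom- cells and in which Gata3 stood at 8.36 CPM in tdTom+ against 4.42 CPM in tdTom- (2 UMIs). Gata2 over all blood cells stood at 125 and 3.92 CPM, a log2 fold of 4.99 (4.72 to 5.28). Scaling by the median ratio of genes in place of the total moved the blood comparison by 0.20 on the log2 scale.

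Among the thinned blood cells, Gata1 was detected in 11.9% of 630 Gata2-positive and 12.0% of 980 Gata2-negative tdTom+ cells. In tdTom- it was detected in 41.7% of 24 Gata2-positive and 46.8% of 1417 Gata2-negative cells. The intervals overlapped within each fraction. These shares pool sub-clusters that differ in both genes, and the tdTom- share rests on 24 cells (22.1 to 63.4%), so a relation within a sub-cluster was not tested.

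The partners with which GATA factors form complexes in blood were read in the same early erythroid-like comparison. Of 10 cofactors tested, 3 were past 2-fold higher in tdTom+ and 0 lower. Of all genes tested, 7.96% were higher and 3.32% lower. The median log2 fold was 0.23 for the cofactors against 0.10 over all genes tested. The lists of cofactors, other zinc finger genes and cardiac partners were chosen with earlier results of these data known. Their counts are therefore not read as an excess over all genes tested. Runx1, a transcription factor of blood stem cell emergence, stood at 91.2 and 32.8 CPM (log2 fold 1.48), Fli1, an ETS factor of megakaryocytes and endothelium, at 19.7 and 6.49 CPM (1.60), and Cbfa2t3, a corepressor of the Tal1 complex, at 158 and 64.9 CPM (1.29). The core partners stayed within 2-fold. Tal1, the helix-loop-helix partner in the GATA complex, stood at 334 and 180 CPM (0.89), Zfpm1, the Friend of GATA protein that Gata1 needs to switch Gata2 off, at 279 and 253 CPM (0.14), and the bridging protein Lmo2 at 251 and 310 CPM (-0.30). Among the other genes with a GATA-type zinc finger, 1 of 5 tested was past 2-fold higher. It was the repressor Trps1, at 4.89 CPM (133 UMIs) in tdTom+ and 0.475 CPM (3 UMIs) in tdTom-. Trps1 reached the minimum for a comparison through its tdTom+ UMIs. Its place among the genes tested thus depended on the fraction in which it was higher. Among the cardiac partners of Gata4 to Gata6, 1 of 4 tested was higher, Mef2c, a MADS-box factor, at 75.6 and 16.1 CPM (2.23). In the sub-cluster led by Rab27b and Fermt3, where 1.78% of all genes tested were past 2-fold higher and 4.11% lower, 0 of 10 cofactors were higher and 1 was lower, Fli1, at 53.0 and 123 CPM (-1.22).

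Endothelial-like cells, in which Gata2 is known to act in vessel identity and in the endothelium that makes blood, carried it at like levels in both fractions. Gata2 stood at 44.0 CPM in tdTom+ (401 UMIs) against 39.5 CPM in tdTom- (244 UMIs), a log2 fold of 0.16 (-0.08 to 0.39), and was found in 47.7% and 44.5% of cells (18.8% and 16.5% after thinning). Gata6 stood at 48.7 and 50.6 CPM, Gata3 at 10.4 and 11.2, Gata4 at 5.49 and 5.50, and Gata5 at 2.63 and 3.07. Gata1 stood at 0.549 CPM in tdTom+ (5 UMIs) and 2.75 CPM in tdTom- (17 UMIs), so these host cells held little of it. None of the paralogs tested was past 2-fold here, nor was any of the 12 cofactors, in a comparison in which 0.291% of 9270 genes were past 2-fold higher and 0.723% lower.

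Within the endothelium the paralogs varied more between sub-clusters than between fractions. Gata2 stood at 58.5 CPM in tdTom+ against 46.0 CPM in tdTom- where Etv2 and Kdr led, at 49.1 and 39.8 where Etv2 and Emcn led, at 34.0 and 31.3 where Lyve1 and Plvap led, and at 30.3 and 34.2 where Rasip1 and Cldn5 led. Gata6 followed the same order of sub-clusters, an order that Gata2 held in tdTom+ but not for the last pair in tdTom-, at 74.5 and 74.6, 62.4 and 55.2, 31.0 and 34.7, and 22.0 and 23.7 CPM. Gata3 was highest where Lyve1 and Plvap led, at 16.5 and 21.7 CPM.

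Across the lineages of the whole embryo each paralog had its own range. Of 44 groups of lineage and fraction with at least 50 cells, Gata2 reached 10 CPM in 8, Gata3 in 16, Gata4 in 11, Gata5 in 12 and Gata6 in 24. Outside blood and endothelium, the highest Gata2 level was in trophoblast-like cells (73 tdTom- cells and 1 tdTom+ cell, with 8 of 8 trophoblast markers raised), at 135 CPM (119 to 153), a level within the range of the tdTom+ blood sub-clusters. Gata3, known beside Gata2 in trophoblast, stood at 36.6 CPM there. These cells were nearly all of the host, so no comparison between fractions could be made in them.

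**Figure D3:**
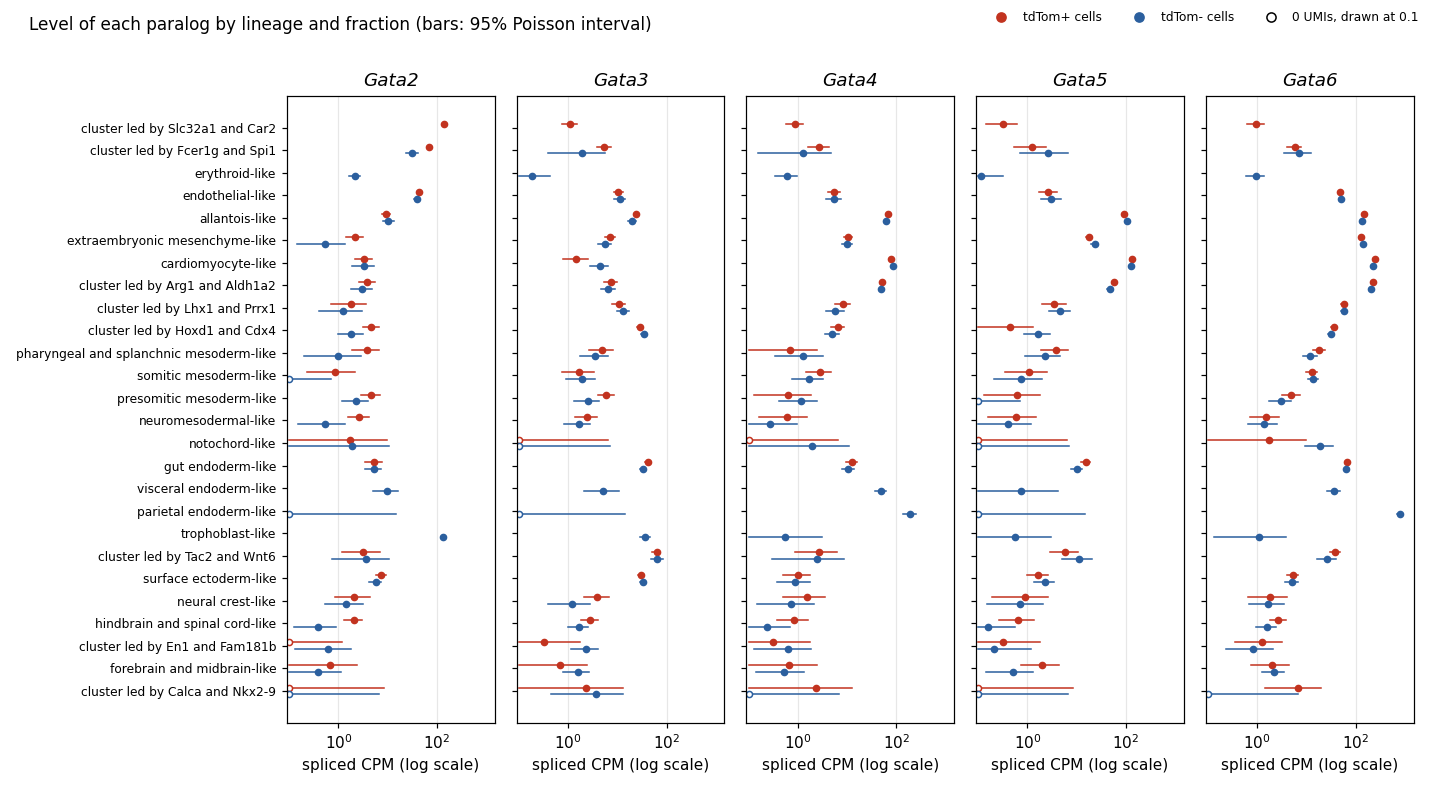
Level of each paralog (spliced CPM, log scale) by lineage, with 1 point per fraction and bars for the 95% Poisson interval. Gata2 was high in tdTom+ blood, tdTom- trophoblast-like (135 CPM) and endothelial-like groups, Gata3 in ectoderm, gut and the cluster led by Tac2 and Wnt6, and Gata4, Gata5 and Gata6 in cardiomyocyte-like and allantois-like cells.

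Gata3, which is known in surface epithelia, was highest in the cluster led by Tac2 and Wnt6 (117 tdTom+ and 54 tdTom- cells), at 62.6 and 63.3 CPM. Gut endoderm-like cells stood at 41.7 and 33.2 CPM, a log2 fold of 0.33 (0.04 to 0.62). They were next in order in tdTom+, while in tdTom- their interval overlapped those of trophoblast-like cells (36.6 CPM) and of the groups that follow. The cluster led by Hoxd1 and Cdx4 stood at 29.5 and 34.2 CPM, surface ectoderm-like cells at 29.8 and 32.5, and allantois-like cells at 24.5 and 20.2. Below them the cluster led by Lhx1 and Prrx1 stood at 10.6 and 13.2 CPM, near the endothelial-like level.

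Gata4 (ENSMUSG00000021944) lies at chr14:63198922-63271692 (minus strand), Gata5 (ENSMUSG00000015627) at chr2:180325133-180334699 (minus) and Gata6 (ENSMUSG00000005836) at chr18:11052064-11085635 (plus). These genes, which act together in heart formation, had cardiomyocyte-like cells among their highest groups (528 tdTom+ and 328 tdTom- cells). Gata4 stood at 77.1 CPM in tdTom+ and 84.5 in tdTom-, Gata5 at 130 and 125, and Gata6 at 249.1 and 222, the last a log2 fold of 0.17 (0.06 to 0.27). No cardiac paralog was past 2-fold, in a comparison in which 0.355% of 9287 genes were higher and 1.22% lower. Of the 8 cardiac partner genes tested, 0 were past 2-fold in either direction, with Nkx2-5, the cardiac homeobox gene, at 298 and 290 CPM, Hand2 at 139 and 106 and Tbx5 at 76.4 and 87.8. The levels of the cardiac paralogs thus lay close together in the fractions.

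The cardiomyocyte-like clusters differed from each other more than the fractions did. In the one led by Csrp3 and Sfrp5 (142 tdTom+ and 97 tdTom- cells), Gata4 stood at 160 and 151 CPM, Gata5 at 203 and 175 and Gata6 at 408 and 391. In the one led by Lefty2 and Mpped2 (230 and 111 cells), Gata4 stood at 28.7 and 30.8, Gata5 at 93.2 and 85.2 and Gata6 at 216 and 202. The third, led by Myl3 and Actc1 (156 and 120 cells), had Gata4 at 73.9 and 78.0, Gata5 at 121 and 118 and Gata6 at 162 and 110, the last a log2 fold of 0.55 (0.32 to 0.79). In fold terms Gata4 thus had the widest spread of the cardiac paralogs over these clusters.

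Allantois-like cells, the mesoderm of the future umbilical cord, had Gata4 at 66.6 and 62.2 CPM and Gata5 at 89.3 and 106, the latter a log2 fold of -0.24 (-0.39 to -0.10). Gata6 stood there at 151 and 138 CPM. The cluster led by Arg1 and Aldh1a2 (392 and 399 cells) had Gata4 at 51.2 and 49.6, Gata5 at 58.5 and 47.3 and Gata6 at 230 and 209 CPM. Extraembryonic mesenchyme-like cells carried mainly Gata6, at 129 and 141 CPM, with Gata4 at 10.5 and 9.85 and Gata5 at 17.6 and 23.2. Gata6 reached further groups in which the other cardiac paralogs stayed below 10 CPM. In the cluster led by Lhx1 and Prrx1 it stood at 57.8 and 58.5 CPM, with Gata4 at 8.33 and 5.83 and Gata5 at 3.53 and 4.56. In that led by Hoxd1 and Cdx4 it stood at 36.7 and 31.7 CPM, with Gata4 at 6.56 and 5.00 and Gata5 at 0.447 and 1.67.

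In the endoderm, where Gata4 and Gata6 are known regulators, gut endoderm-like cells had Gata6 at 67.0 and 65.2 CPM, Gata4 at 12.5 and 10.6 and Gata5 at 15.3 and 10.0, the last a log2 fold of 0.61 (0.11 to 1.12). The gut clusters differed in Gata4. In the one led by Pyy and Spink1 (228 and 237 cells) it stood at 9.72 and 16.6 CPM, a log2 fold of -0.77 (-1.46 to -0.10), and in the one led by Nepn and Apela (123 and 186 cells) at 17.04 and 3.97 CPM, from 35 and 11 UMIs, under the minimum for a comparison. The fractions thus stood in opposite order in the 2 clusters, a difference that was not tested, and the gut endoderm as a whole lay between them.

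The highest level of any paralog in any group was in the host. Parietal endoderm-like cells, 20 tdTom- cells of the yolk sac's outer endoderm lineage, had Gata6 at 798 CPM (692 to 916) and Gata4 at 190, with Gata2, Gata3 and Gata5 at 0 UMIs, which in so few cells allows up to 11.9 CPM of each. Visceral endoderm-like cells (11 tdTom+ and 63 tdTom-) had Gata4 at 65.9 and 48.5 CPM and Gata6 at 65.9 and 35.8, with Gata5 at 0 and 0.746 CPM. With so few cells of the tdTom+ fraction, no comparison was made.

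Over the 19 lineage groups with at least 50 cells of each fraction, 40 pairs of paralog and group had enough UMIs to compare. The median log2 fold was 0.09, and it ranged from -0.40 to 1.12. The counting interval included 0 in 30 pairs, lay above 0 in 7 and below 0 in 3. No share of such intervals over all genes is given here, so these counts are not read as particular to the paralogs. One pair was past 2-fold, Gata2 in the cluster led by Fcer1g and Spi1, at 67.9 and 31.4 CPM, a log2 fold of 1.12 (0.69 to 1.57), in a comparison in which 4.93% of 7908 genes were past 2-fold higher and 2.42% lower. Over all genes, 0.54% of the 165108 pairs of gene and lineage group were past 2-fold higher and 0.892% lower. That cluster held cells of several blood sub-clusters, and of the sub-clusters with cells of both fractions the log2 fold was 2.62 in the one led by Rab27b and Fermt3 and -0.37 in the myeloid-marked one. The pair was not past 2-fold after thinning (0.60) or, in the clusters led by the same genes, at a clustering resolution of 1 (0.41) or with the GATA genes kept in the clustering (0.69, on 40 tdTom- cells). Gata3, Gata4, Gata5 and Gata6 were past 2-fold in 0 of the 10, 8, 5 and 12 groups in which each could be compared. Some pairs of Gata2 below the minimum were past 2-fold higher, with intervals above 0. The log2 fold was 2.07 in extraembryonic mesenchyme-like cells (27 and 4 UMIs) and 2.29 in neuromesodermal-like cells (18 and 4). It was 1.35 in the cluster led by Hoxd1 and Cdx4 (31 and 13). In hindbrain and spinal cord-like cells, which should lack Gata2, it was 2.39 (22 and 5). It was -0.20 in the cluster led by Tac2 and Wnt6 (6 and 3), and that led by En1 and Fam181b had 0 and 3. Gata1 in tdTom- cells stood at 111 CPM in the cluster led by Fcer1g and Spi1. In the other groups it ranged from 0.778 CPM (hindbrain and spinal cord-like) to 3.65 CPM (the cluster led by Tac2 and Wnt6, 3 UMIs). The host cells of those groups thus held little Gata1 RNA, which limits what they can show about its loss.

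**Figure D4:**
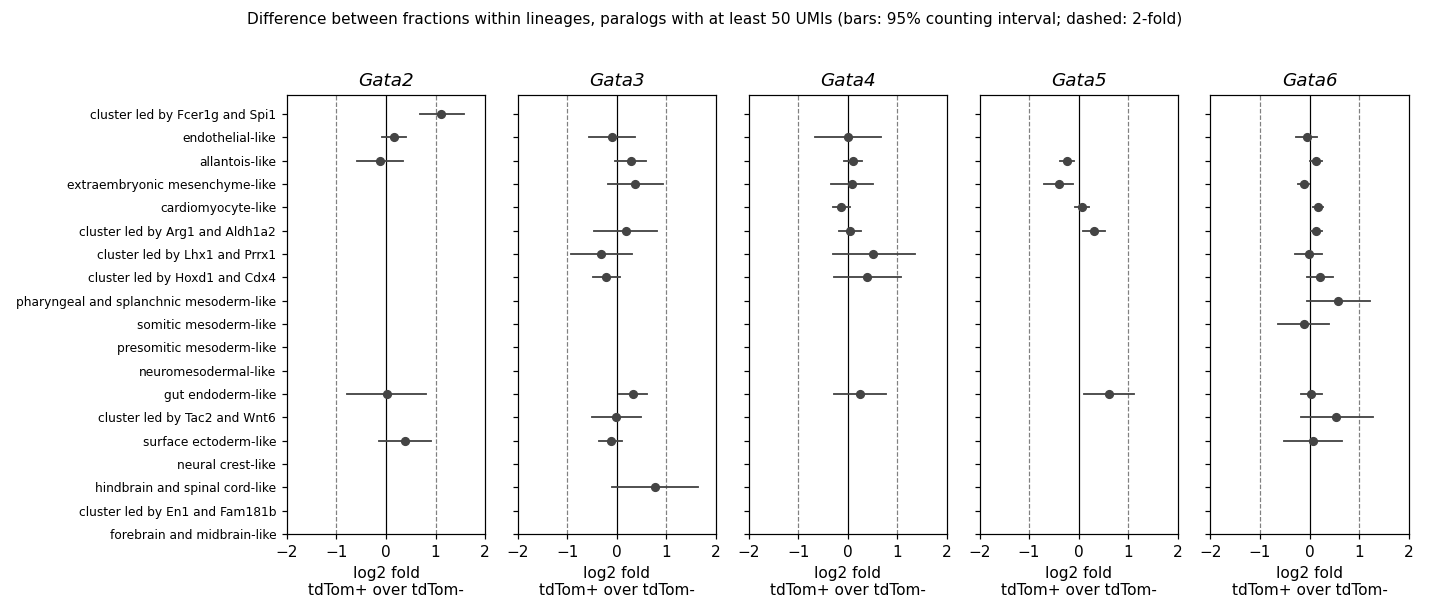
Log2 fold of tdTom+ over tdTom- for each paralog in each lineage group with at least 50 UMIs, with bars for the 95% counting interval and dashed lines at 2-fold. Gata2 in the cluster led by Fcer1g and Spi1, at 1.12, is the 1 point of the 40 beyond a dashed line.

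The unspliced layer gave a separate reading of the same cells. Over all kept cells the unspliced share of UMIs was 1.75% for Gata2 in tdTom+ and 3.16% in tdTom-, 18.8% and 17.5% for Gata3, 60.4% and 61.9% for Gata4, 19.6% and 19.9% for Gata5, and 14.3% and 15.7% for Gata6. For Gata1 it was 57.8% and 8.36%. None of the paralogs showed a gap between fractions of the kind Gata1 had. In the early erythroid-like comparison Gata2 had 42 unspliced UMIs in tdTom+, 1.11% of its UMIs (0.803 to 1.501), and 2 in tdTom-, so the unspliced counts were also higher in tdTom+ but were few.

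Among 11027 genes with at least 1000 UMIs in both layers together, the median unspliced share was 19.5%, and 14.9% of genes lay below Gata2 and 82.4% below Gata4. The share of Gata4 was 53.8% to 65.7% over the 20 groups of lineage and fraction with at least 50 Gata4 UMIs in both layers together. That of Gata3 was 29.6% and 25.0% in endothelial-like cells and 12.2% and 16.2% in gut endoderm-like cells, and that of Gata6 was 22.4% and 21.4% in endothelial-like and 11.8% and 13.5% in cardiomyocyte-like cells. Several loci share sequence with other annotated genes. Gm13256, on the strand opposite to Gata3, had 2562 unspliced UMIs in tdTom+ and 2139 in tdTom- but 4 and 3 spliced ones, and 1010001N08Rik, on the strand opposite to Gata6, had 957 and 366 spliced UMIs. How the counting treated strand was not checked here, so the split of reads between these genes and Gata3 or Gata6 is uncertain.

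**Figure D5:**
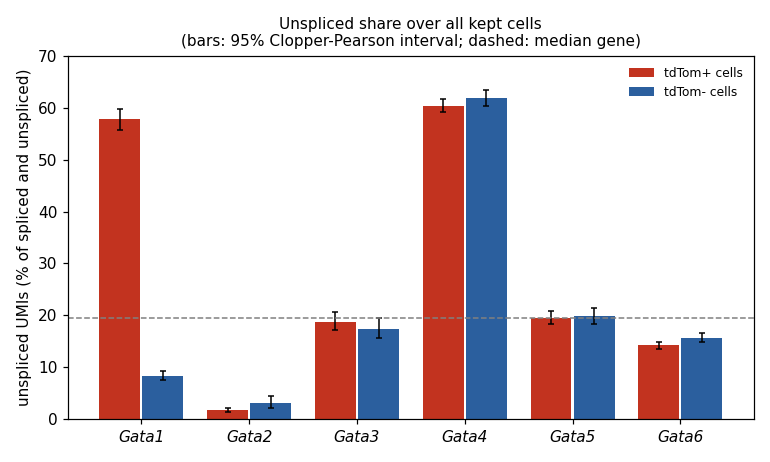
Unspliced UMIs as a percentage of spliced and unspliced UMIs for Gata1 and each paralog over all kept cells, by fraction, with bars for the 95% Clopper-Pearson interval and a dashed line at the median gene (19.5%). Gata1 is at 57.8% in tdTom+ and 8.36% in tdTom-, while each paralog has points close together, from 1.75% for Gata2 to 61.9% for Gata4.

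Across the 44 groups, the genes whose levels followed each paralog most closely were named by Pearson's correlation of log2(CPM + 10) among 12504 genes, as a description, since the groups share 2 libraries and related cells. For Gata2 they were Arpc1b (0.84), Zfp706 (0.82) and M6pr (0.82), and for Gata3 Dsg2 (0.78), Serpinb6a (0.77) and Krt8 (0.77). For Gata4 they were Gata5 (0.90), Gata6 (0.86) and Smarcd3 (0.84), for Gata5 Tbx20 (0.91), Gata4 (0.90) and Defb42 (0.89), and for Gata6 Nrp1 (0.88), Gata4 (0.86) and Csrp2 (0.85). Gata2 followed none of the other paralogs, with values of 0.18, 0.02, 0.00 and -0.04 for Gata3, Gata4, Gata5 and Gata6.

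Detection of the cardiac paralogs in the same cells was read in thinned cells of the cardiomyocyte-like, allantois-like and gut endoderm-like groups. In 18 comparisons of cells with and without 1 paralog, the share with a second one was higher in the positive cells in 18, but the intervals overlapped in 15 and were apart in 3. No such share for other pairs of genes is given here, so these counts are not read as particular to the paralogs. The cells are pooled over clusters whose levels of these paralogs differ together, as given above for the cardiomyocyte-like clusters, and co-detection within a cluster was not tested. In cardiomyocyte-like cells of tdTom+, Gata6 was detected in 76.0% of Gata4-positive cells (68.4 to 82.6) and 68.5% of Gata4-negative ones (63.5 to 73.2). In tdTom- the shares were 69.7% (60.2 to 78.2) and 56.5% (49.4 to 63.3). In allantois-like cells of tdTom+, Gata6 was detected in 58.0% of Gata5-positive cells (51.5 to 64.3) and 41.6% of Gata5-negative ones (36.9 to 46.4), and in tdTom- in 50.6% (42.5 to 58.7) and 44.2% (37.1 to 51.4). In gut endoderm-like cells of tdTom-, Gata6 was detected in 60.0% of 20 Gata4-positive cells (36.1 to 80.9) and 19.2% of Gata4-negative ones (15.4 to 23.5), and in 53.3% of 15 Gata5-positive cells (26.6 to 78.7) and 19.9% of Gata5-negative ones (16.1 to 24.3). Between Gata4 and Gata5 the intervals overlapped in all of these groups. The 3 comparisons with intervals apart were that of Gata5 with Gata6 in allantois-like tdTom+ cells and the pair just given in gut endoderm-like tdTom- cells.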

How the data were processed

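Droplet-based single-cell RNA libraries (10x Genomics) of the sorted tdTom+ and tdTom- fractions were analysed, 1 library each. The authors aligned reads to mm10 with a tdTomato sequence added (Cell Ranger 3.0.2), called cells against empty droplets, filtered them by a mixture model and counted spliced and unspliced molecules with velocyto. The deposited values used here are raw counts of UMIs per gene and cell, not normalised. A deposited table of cell annotations was not used.

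Scrublet calls (4.58% of tdTom+ and 5.98% of tdTom- cells) and 1 cluster of 419 cells that consisted mostly of such calls were left out. Cells were scaled to 10000 UMIs, logged and clustered over 50 components with 20 neighbours (Leiden, resolution 1.5; 36 clusters). Blood and endothelial cells were clustered again at resolution 1 over 30 components with 15 neighbours. Genes of the GATA family, of the lists, of sex and of imprinting (67 in all) took no part. A cluster was called "-like" from the class with most markers raised if at least 3 were raised and no other class had more markers among the 10 leading genes. Of classes with equally many raised, the one with more among the 10 leading genes was taken, and a tie in both left the cluster unnamed. Unnamed clusters are given by their 2 leading genes. Among the 15 tdTom- blood cells closest to a tdTom+ blood cell, the commonest sub-cluster was taken as its match. Sums carried exact Poisson, shares Clopper-Pearson and folds exact conditional 95% intervals. A count of 0 entered as a floor of 3 counts over the group. The fold intervals were tested on simulated Poisson counts with known folds. Those counts follow the model that the intervals assume, so spread between cells or libraries was not tested. Likeness used genes with at least 200 spliced UMIs. Clustering used scanpy 1.11.5 with igraph 0.11.9, leidenalg 0.10.2 and scikit-learn 1.9.0 under Python 3.11.15, intervals SciPy 1.17.1, tables pandas 2.3.3 and NumPy 2.4.6, and plots matplotlib 3.10.9. Gene positions came from GENCODE (GRCm38) and upstream windows from RefSeq, which gave 2 for Gata2 and 1 each for Gata1, Gata3 and Gata5.

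The named genes were the 5 paralogs, Gata1, 3 fixed lists (cofactors in blood, other genes with a GATA-type zinc finger, cardiac partners) and the 3 genes most like each paralog. The rule for the members is by name, but members and lists were chosen with earlier results of these data known. Chosen after the data were seen were the minimum of 10 UMIs for a raised marker, the need for at least 50% of a class's markers, the inclusion among blood cells of unnamed clusters whose best class was a blood class, and 4 alternatives.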

Additional observations from a re-analysis of the deposited data

Results flagged for a closer look

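Gata5 and Gata6 went in different directions between lineage groups, with counting intervals that did not include 0 on either side. For Gata5 the log2 fold of tdTom+ over tdTom- was 0.61 in gut endoderm-like cells and 0.31 in the cluster led by Arg1 and Aldh1a2, but -0.24 in allantois-like and -0.40 in extraembryonic mesenchyme-like cells. For Gata6 it was 0.17 in cardiomyocyte-like cells, 0.14 in the cluster led by Arg1 and Aldh1a2 and 0.13 in allantois-like cells, but -0.12 in extraembryonic mesenchyme-like cells. All of these differences are below 2-fold, each fraction is 1 library, and the difference between the groups was not tested.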

How the results depend on the processing

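Each fraction is 1 library, so no result has a replicate check, and a difference between the libraries cannot be told apart from one between genotypes. No paired analysis was possible because each fraction is 1 library, and for the same reason leaving out a replicate was not possible. The matched blood comparison was not run with doublets kept, since doublets were not placed in blood sub-clusters. Depth limits lineages with few cells, and the matching depends on the nearest host cells being a fit comparison.

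No difference past 2-fold changed direction under the alternatives run. The log2 fold of Gata2 outside blood and endothelial cells, below 2-fold, turned from -0.25 to 0.70 without trophoblast-like cells, an alternative added after seeing the data. Over all kept cells, the log2 fold of Gata1 was -0.98 with spliced and unspliced UMIs added (-2.10 as reported), and those of the 5 paralogs kept their direction and their side of 2-fold. In early erythroid-like cells that of Gata2 (4.67) was 5.39 after thinning, and, in comparisons added after seeing the data, 5.35 over all blood cells without the myeloid-marked sub-cluster and 2.62 in the sub-cluster led by Rab27b and Fermt3. The number of paralog and lineage pairs past 2-fold (1 of 40) was 2 with spliced and unspliced UMIs added (Gata3 in presomitic mesoderm-like cells, 1.25), 0 of 25 after thinning, 2 with doublets kept (Gata2 in cardiomyocyte-like cells, 1.49), and 3 at resolution 2, where Gata4 (-4.31) and Gata6 (-3.41) were added in a group named parietal endoderm-like. That group joined the 20 tdTom- cells described above with a cluster of 137 tdTom+ and 176 tdTom- cells led by Ebf1 and Foxd1, which had 4 of 8 parietal endoderm markers raised and as many of head mesenchyme, so these folds are not read as differences within parietal endoderm. It was 1 at resolution 1, of Gata2 in the cluster led by Cdx4 and Hoxd1 (1.16) in place of that led by Fcer1g and Spi1 (0.41), and 1 with the GATA genes kept in the clustering, of Gata6 in pharyngeal and splanchnic mesoderm-like cells (1.23). The share of genes past 2-fold lower in early erythroid-like cells was 13.04% with no minimum beyond 1 UMI (3.32% as reported). Of 320 alternatives for single lineages, 303 stayed within the counting interval, 17 moved beyond it and 0 reversed.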
